A study of Homo sapiens with 12 samples.

Results

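The Hippo and YAP pathway was followed, in 10 of its genes, through N6-methyladenosine (m6A) peak lists of 143B, a human cell line established from osteosarcoma. The 10 genes were taken by Entrez gene number from a fixed list of names, out of 10536 genes with a peak in any list. They were the coactivators YAP1 and WWTR1, the DNA-binding partners TEAD1 and TEAD3, the kinases LATS1 and LATS2, the angiomotin-like proteins AMOTL1 and AMOTL2, and the secreted proteins CCN1 (formerly CYR61) and CCN2 (formerly CTGF). Cells received siRNAs to ALKBH5, a demethylase that erases m6A, or scrambled siRNA, and were taken at 48 h. MeRIP-seq was used, which sequences RNA fragments that an antibody to m6A has captured. The ALKBH5 knockdown and the scrambled control each had 3 immunoprecipitated libraries with 1 peak list per library, and the 6 input samples were not analysed here. Same-numbered libraries form pairs made by 1 method. Replicates 1 and 3 began with polyadenylated RNA and used different m6A antibodies, while replicate 2 began with total RNA and a kit with an antibody of its own, per the labels' protocols. The antibody field of the labels gives the antibody of replicate 1 for every immunoprecipitate, which differs from the protocol text. All libraries came from 1 cell line, and nothing in the labels says that the replicates were separate cultures. The p-values therefore cover no more than the spread between these samples. Within a group that spread includes the differences of RNA type and antibody, and the rest may be technical.

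The Hippo pathway restrains growth by phosphorylating YAP1 and its paralogue WWTR1, also called TAZ. LATS1 and LATS2 are the kinases that do this, and phosphorylated YAP1 and WWTR1 are held in the cytoplasm or degraded. Unphosphorylated YAP1 and WWTR1 enter the nucleus, bind TEAD factors and switch on genes that include CCN1, CCN2, AMOTL2 and LATS2, so several members are both parts and outputs of the pathway. Methylation of adenosine in mRNA influences how long a transcript lasts and how it is processed and translated.

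The lists give no read counts, so depth is unknown and a missing peak does not show that a site lacked the mark. They held 17563, 5917 and 18360 peaks in knockdown replicates 1, 2 and 3, against 15139, 5677 and 18724 in the scrambled libraries. Replicate 2 had the shortest lists and the fewest genes in both conditions. The exon length covered by all peaks was 1.57, 1.13 and 1.00 times as large in the knockdown as in the scrambled library of replicates 1, 2 and 3, so a longer peak in knockdown replicate 1 is common to much of that list. ALKBH5 itself had no peak in any knockdown library, and 210, 0 and 150 nt of peak in scrambled replicates 1, 2 and 3. Peaks are not RNA levels, and neither the depth of the knockdown nor the RNA level of any gene was measured here. Of 10 osteoblast and mesenchymal markers, 4 had a peak in some list (RUNX2, COL1A1, BGLAP and TWIST1), BGLAP with 115 nt in knockdown replicate 1 alone. SP7, COL1A2, SPARC, ALPL, IBSP and VIM had none, nor did any of 6 epithelial and 4 blood cell markers. These counts were not tested and do not identify the cell type.

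Every one of the 10 genes had a peak in at least 1 library, with 107 peaks in all, and each gene's peaks lay on a single strand. The members were chosen with earlier results of these data known, so this says nothing of the pathway at large. Of 57 further pathway genes, 43 had a peak in some library. LATS1, LATS2, AMOTL1, AMOTL2, CCN1 and YAP1 had a peak in all 6 libraries, as did 23.3% of all genes with a peak. CCN2 had one in 5 libraries and TEAD1 in 4, with none in either library of replicate 2. WWTR1 was listed in scrambled replicate 3 alone, and TEAD3 in knockdown replicate 3 alone. The number of members with a peak was 8, 6 and 9 in knockdown replicates 1, 2 and 3, against 8, 7 and 9 in the scrambled libraries. Of all 10536 genes with a peak, 8267, 3373 and 9125 were in those knockdown lists. The scrambled lists held 7010, 3305 and 9288 of them. Outside replicate 2, peaks of the members crossed exon junctions more often than all peaks of their lists. In knockdown replicates 1, 2 and 3, 40, 0 and 42.1% of member peaks had several exon blocks, against 14.4, 4.51 and 17.3% of all peaks. In scrambled replicates 1, 2 and 3 the shares were 21.7, 7.14 and 47.4% of member peaks, against 11.3, 4.10 and 14.2% of all peaks. Median length of member peaks was 538.5, 180 and 628 nt in the knockdown libraries, against 269, 151 and 331 nt for all peaks. In the scrambled libraries it was 300, 105.5 and 480 nt, against 209, 151 and 331 nt. Whether peak length accounts for the shares was not tested. The bases under the peaks are not shown, because no genome of the lists' build was used here. For the same reason the positions below, all hg19 and counted from 1, were not assigned to coding or untranslated exon.

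**Figure D1:**
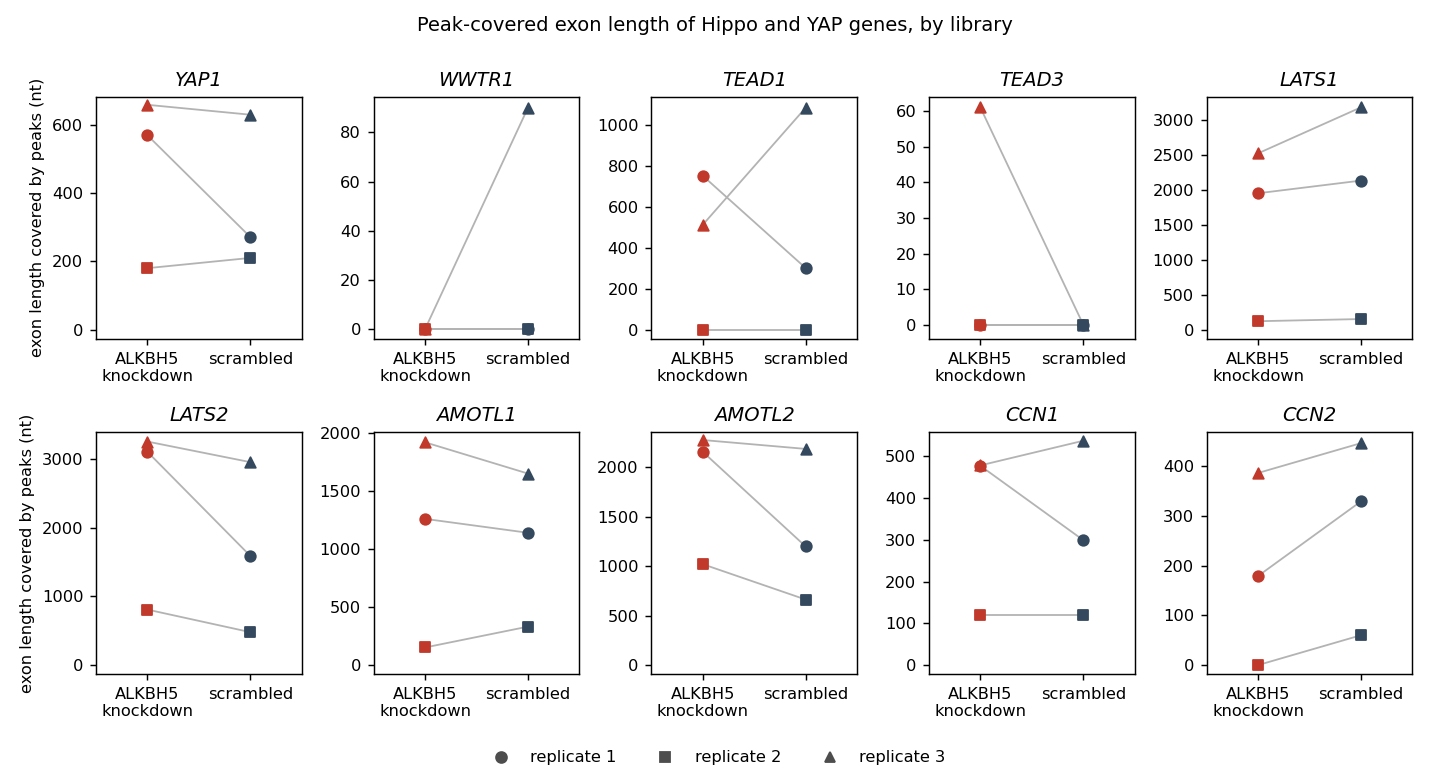
Exon length covered by peaks (nt, linear axis, own scale per gene) for each of the 10 genes in the 3 ALKBH5 knockdown libraries (red, left) and the 3 scrambled libraries (dark blue, right); lines join same-numbered replicates and points are single libraries. LATS2 and AMOTL2 are longer in the knockdown of every pair, and LATS1 and CCN2 are shorter in every pair. Of the 4045 genes with a peak in every pair, 33.8% were longer and 3.71% shorter in all 3. In none of the 10 genes do all knockdown values lie apart from all scrambled values. Such a separation was rare among the 4045 genes too, at 0.742% (above) and 0.0742% (below).

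The coactivators differed in how much peak they carried. YAP1 (gene number 10413) peaks covered 569, 180 and 658 nt in knockdown replicates 1, 2 and 3, against 271, 210 and 629 nt in the scrambled libraries. The knockdown was thus longer in replicates 1 and 3 and shorter in replicate 2, and the groups overlapped. Mean covered length was 469 ± 254 nt in the knockdown and 370 ± 226 nt in the scrambled libraries (SD, n = 3 each), a difference of 99 nt (two-sided exact permutation test, p = 0.9, adjusted over all 10536 genes 1, where 3 against 3 cannot go below 0.1). The difference was 4.5 nt without knockdown replicate 3, 19 nt without scrambled replicate 2, 49 nt without knockdown replicate 1 and 49.5 nt without scrambled replicate 1, and it was 243.5 nt without knockdown replicate 2 and 228.5 nt without scrambled replicate 3.

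All 6 libraries called the YAP1 region at chr11:102098268-102101045 (plus strand), which holds 658 nt of exon in 2 blocks. No base of it was covered in every library, since scrambled replicate 1 had only a 91 nt peak toward its 3′ end, at 102100866 to 102100956, and both replicate 2 peaks ended upstream of that, at 102100627. Scrambled replicate 1 alone had a further 180 nt peak far upstream, at chr11:101981192-101981371. In replicate 1 the pair therefore shared 91 nt, 16.0% of the knockdown's covered bases and 33.6% of the scrambled library's. In replicate 3 they shared 629 nt, 95.6% of the knockdown's bases and all of the scrambled library's. WWTR1 (gene number 25937) had 1 peak of 90 nt, at chr3:149238635-149238724 on the minus strand in scrambled replicate 3. Its score stood at the 8.48 percentile of that list (100 being the best), so it was among the weaker calls.

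TEAD1 and TEAD3 encode factors that tether YAP1 to DNA, and both were called in neither library of replicate 2. Their paralogue TEAD4, counted below among the partners, was called in all 6 libraries. TEAD1 (gene number 7003) peaks covered 752, 0 and 512 nt in knockdown replicates 1, 2 and 3, against 301, 0 and 1084 nt in the scrambled libraries. The direction was opposite in the 2 pairs that had peaks, longer in the knockdown of replicate 1 and shorter in that of replicate 3. The difference of means was -40.3 nt (exact permutation test, p = 1, n = 3 each), and it was 170.3 nt without knockdown replicate 2 and 270.8 nt without scrambled replicate 3.

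TEAD1 peaks lay in 3 regions of the plus strand of chromosome 11. The most 5′ region, from 12695969 to 12785790 with 631 nt of exon, was called in knockdown replicate 1 and in scrambled replicates 1 and 3. There the peak of scrambled replicate 1 covered 301 nt and ranked at the 98.6 percentile of its list, the best rank of any member peak in any list. The middle region (12958695 to 12958935) was called in both libraries of replicate 3 and in no other. The most 3′ region (12963914 to 12964364) was called in knockdown replicates 1 and 3, with 211 and 301 nt, and in scrambled replicate 3, with 451 nt. TEAD3 (gene number 7005) had 1 peak of 61 nt, at chr6:35464711-35464771 on the minus strand in knockdown replicate 3, at the 16.7 percentile of that list.

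LATS1, LATS2 and AMOTL2 had the longest mean covered lengths of the 10 genes in both groups, although LATS1 was below YAP1 in both libraries of replicate 2. Within pairs the knockdown value was the lower one for LATS1 and the higher one for LATS2, and the difference between these kinases was not tested. LATS1 (gene number 9113) peaks covered 1948, 121 and 2518 nt in knockdown replicates 1, 2 and 3, against 2129, 152 and 3175 nt in the scrambled libraries. The knockdown value was the lower one in all 3 pairs, at 0.915, 0.796 and 0.793 times the scrambled value. The replicates of a group, which differ in RNA type or antibody, spread far more widely than this. Group means were 1529 ± 1252 nt in the knockdown and 1819 ± 1535 nt in the scrambled libraries (SD, n = 3 each, exact permutation test, p = 0.7). That spread includes the differences of method and does not measure noise within a pair. The 3 paired differences gave p = 0.25 in an exact sign-flip test, the smallest value that 3 pairs allow. The replicate 2 difference was 31 nt, and it came from peaks that shared no base. The difference of means, -289.7 nt, turned to 414.3 nt without knockdown replicate 2 and to 388.5 nt without scrambled replicate 3.

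LATS1 sites on the minus strand of chromosome 6 fell into 4 regions. The largest, from 149997718 to 150005590 with 2275 nt of exon, was called in knockdown replicates 1 and 3, with 1678 and 1947 nt. All 3 scrambled libraries called it, with 1738, 91 and 2245 nt in replicates 1, 2 and 3. The region at 149982879 to 149996753 was also called in those 5 libraries and not in knockdown replicate 2. A region nearer the 5′ end, 150022922 to 150023371, was called in knockdown replicate 2 and in scrambled replicates 1 and 3, and it held the only LATS1 peak of knockdown replicate 2. The most 5′ region, at 150039033 to 150039153, had 121 nt of peak in knockdown replicate 3 alone, at the 5.69 percentile of that list.

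LATS2 (gene number 26524), itself a gene that YAP1 switches on, had 3109, 809 and 3258 nt of peak in knockdown replicates 1, 2 and 3, against 1591, 480 and 2958 nt in the scrambled libraries. The knockdown value was the higher one in every pair, at 1.95, 1.69 and 1.10 times the scrambled value. Group means were 2392 ± 1373 nt in the knockdown and 1676 ± 1241 nt in the scrambled libraries (SD, n = 3 each), and the values overlapped between groups. The difference of 715.7 nt gave p = 0.5 by the exact permutation test (adjusted over all genes 1) and p = 0.25 by the exact sign-flip test. The difference was 117.5 nt without scrambled replicate 2, 282.7 nt without knockdown replicate 3 and 357.2 nt without knockdown replicate 1, and it was 1507 nt without knockdown replicate 2 and 1357 nt without scrambled replicate 3.

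The LATS2 region called everywhere was chr13:21555618-21563088 on the minus strand, with 1822 nt of exon. Inside it, 3 segments were covered in all 6 libraries: 180 nt at 21557551 to 21557730, 151 nt at 21562192 to 21562342 and 60 nt at 21562760 to 21562819. A region of 239 nt just 5′ of it, at 21563178 to 21563416, was called in both knockdown and scrambled replicate 1 and in knockdown replicate 3. The most 3′ region, at 21548579 to 21549445, was called in both libraries of replicates 1 and 3, with 777 and 807 nt in the knockdown libraries of those numbers, against 181 and 867 nt in the scrambled libraries. The most 5′ region, at 21565443 to 21620350, held junction-spanning peaks of 419 and 628 nt in knockdown replicates 1 and 3 and a peak of 478 nt in scrambled replicate 3, while scrambled replicate 1 had 121 nt there in 1 block. Replicate 1 therefore supplied most of the LATS2 difference: 1577 nt were covered only in the knockdown library of that pair and 59 nt only in the scrambled library. In replicate 2 those lengths were 388 and 59 nt, and in replicate 3 they were 360 and 60 nt.

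**Figure D2:**
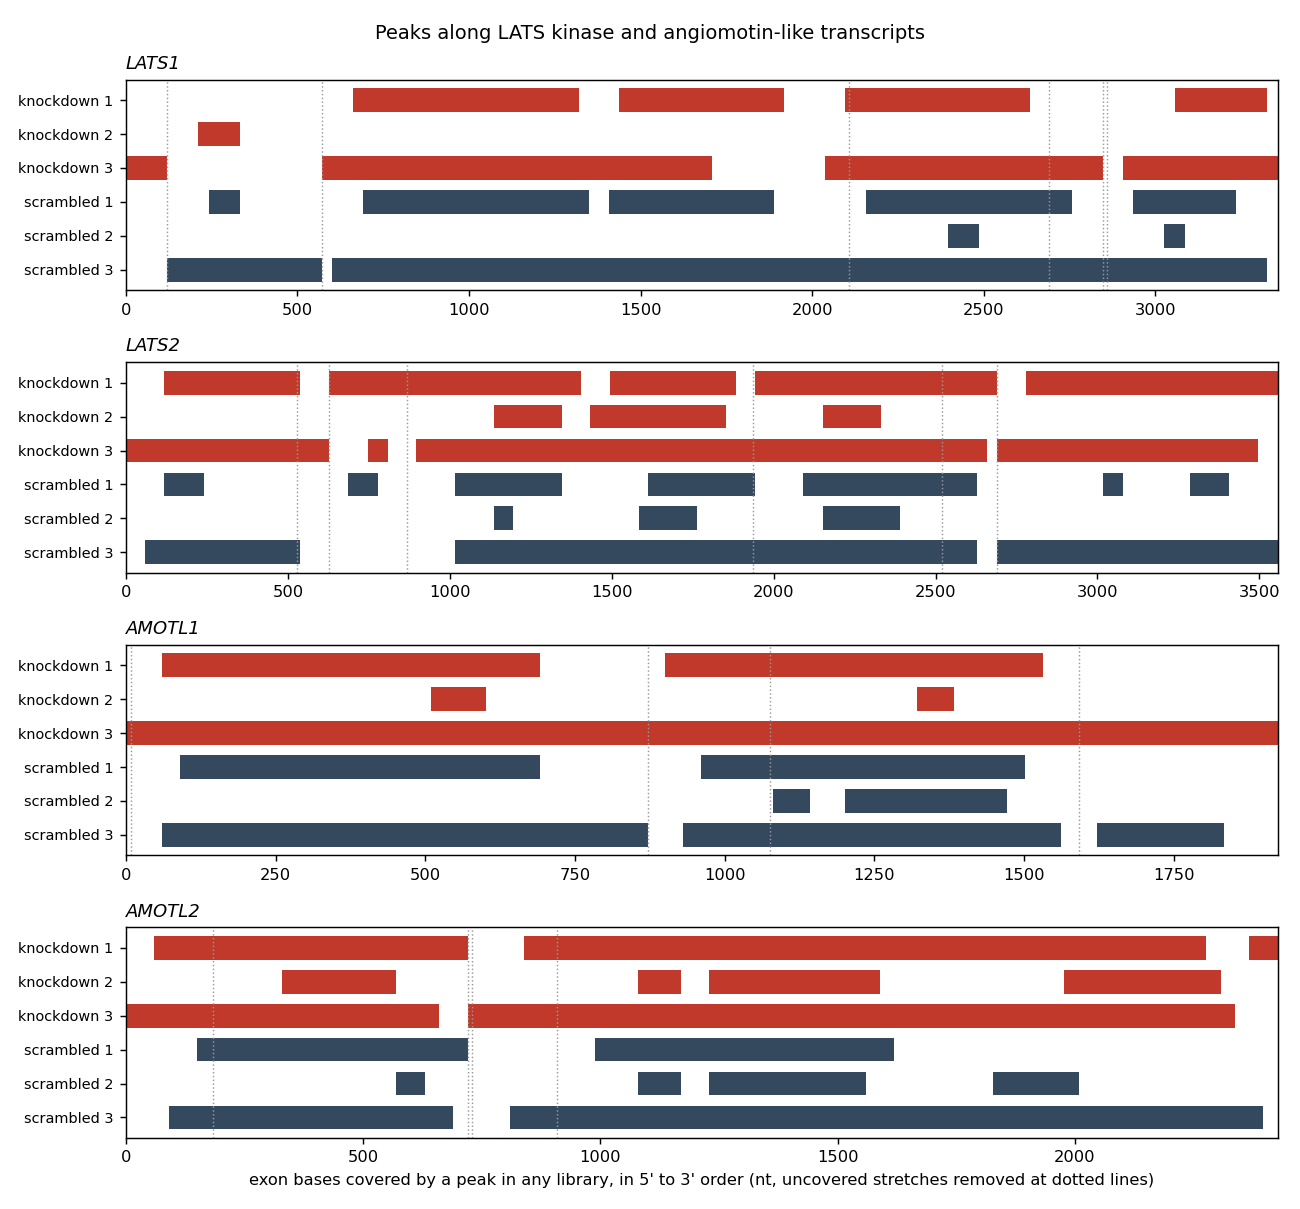
Peak coverage along LATS1, LATS2, AMOTL1 and AMOTL2: the x axis counts exon bases covered by a peak in any library, in 5′ to 3′ order (nt), with uncovered stretches taken out at the dotted lines, so bars that touch at a dotted line can be separate peaks; each row is a library, with the 3 ALKBH5 knockdown libraries in red above the 3 scrambled libraries in dark blue. Replicate 2 libraries cover short pieces of the stretches that replicates 1 and 3 cover, and LATS2 and AMOTL2 each have segments covered in all 6 libraries, which LATS1 lacks.

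The angiomotin-like proteins AMOTL1 and AMOTL2 sit at cell junctions, bind YAP1 and help to keep it out of the nucleus. AMOTL1 (gene number 154810) peaks covered 1262, 152 and 1923 nt in knockdown replicates 1, 2 and 3, against 1142, 332 and 1653 nt in the scrambled libraries. The knockdown was longer in replicates 1 and 3 and shorter in replicate 2. The difference of means was 70 nt (exact permutation test, p = 0.9, n = 3 each), and it was -87.7 nt per Mb when each value was divided by the exon length that the whole list covered. It was also below 0 without knockdown replicate 1 (-4.83 nt), knockdown replicate 3 (-335.3 nt) or scrambled replicate 2 (-285.2 nt).

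AMOTL1 regions lay on the plus strand of chromosome 11. That at 94602434 to 94604369 (721 nt of exon) was called in all 6 libraries, which shared 61 nt at 94604099 to 94604159. The region at 94528318 to 94533417 was called in all but scrambled replicate 2, where the knockdown library of the same number had a 91 nt peak. A further region, at 94604759 to 94605089, was called in both libraries of replicate 3, with 331 nt in the knockdown and 211 nt in the scrambled library.

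AMOTL2 (gene number 51421), also a target of YAP1, had 2158, 1021 and 2277 nt of peak in knockdown replicates 1, 2 and 3, against 1200, 663 and 2187 nt in the scrambled libraries. The knockdown value was higher in all 3 pairs, at 1.798, 1.54 and 1.04 times the scrambled value, and the groups overlapped. Means were 1819 ± 693 nt in the knockdown and 1350 ± 773 nt in the scrambled libraries (SD, n = 3 each). The difference of 468.7 nt gave p = 0.6 by the exact permutation test (adjusted over all genes 1) and p = 0.25 by the exact sign-flip test. It was 125.2 nt without scrambled replicate 2, 239.5 nt without knockdown replicate 3 and 299 nt without knockdown replicate 1, and it was 867.5 nt without knockdown replicate 2 and 887.2 nt without scrambled replicate 3.

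Both AMOTL2 regions, on the minus strand of chromosome 3, were called in all 6 libraries. The more 3′ one, at 134075088 to 134078133 with 1707 nt of exon, held segments of 330 nt (134075956 to 134076285) and 91 nt (134076345 to 134076435) that every library covered. Peaks in this region covered 1498, 781 and 1617 nt in knockdown replicates 1, 2 and 3, against 630, 602 and 1587 nt in the scrambled libraries. The more 5′ one, at 134089801 to 134093367, had 660, 240 and 660 nt in the knockdown and 570, 61 and 600 nt in the scrambled libraries. All 6 lists shared only 1 base of this second region, because the replicate 2 peaks, 240 nt in the knockdown and 61 nt in the scrambled library, barely met.

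CCN1 and CCN2 are matricellular proteins widely used as readouts of YAP1 activity. Their mean covered length was below that of the LATS and angiomotin-like genes in both groups. CCN1 (gene number 3491) had 477, 120 and 478 nt in knockdown replicates 1, 2 and 3, against 299, 120 and 537 nt in the scrambled libraries. The pairs gave 1 longer, 1 equal and 1 shorter knockdown value, with a difference of means of 39.7 nt (exact permutation test, p = 1, n = 3 each) that turned to -19.7, -20.2 and -59.7 nt without knockdown replicate 1, knockdown replicate 3 and scrambled replicate 2. All CCN1 peaks fell in 1 region, at chr1:86048547-86049112 on the plus strand, and every library covered the same 120 nt at 86048844 to 86048963. In both libraries of replicate 2 this segment was the whole peak. Each of the 6 lists also held a peak without a gene number over the same stretch, which was not counted for CCN1.

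CCN2 (gene number 1490) had 179, 0 and 386 nt of peak in knockdown replicates 1, 2 and 3, against 329, 60 and 446 nt in the scrambled libraries. The knockdown value was lower in every pair, by 150, 60 and 60 nt, and the groups overlapped. Means were 188 ± 193 nt in the knockdown and 278 ± 198 nt in the scrambled libraries (SD, n = 3 each; difference -90 nt, exact permutation test, p = 0.6, adjusted over all genes 1; exact sign-flip test, p = 0.25). Without knockdown replicate 2 the difference was 4.17 nt, and without scrambled replicate 2 it was -199.2 nt. Divided by the exon length that each list covered, CCN2 had 31.2, 0 and 49.1 nt per Mb in the knockdown libraries and 89.9, 62.4 and 56.8 nt per Mb in the scrambled libraries, so that every knockdown value lay below every scrambled one (exact permutation test, p = 0.1). On that scale 4.08% of the 4045 genes with a peak in every pair showed the same separation, and no other member did in either direction (6.85% of genes were separated upward). The permutation p of 0.1 follows from any such separation of 3 against 3 libraries. The 0 of knockdown replicate 2 is a missing call.

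The main CCN2 region, at chr6:132270117-132270562 on the minus strand, was called in 5 libraries and missed in knockdown replicate 2, where the scrambled library had a single 60 nt peak at the 24.9 percentile of its list. A second CCN2 peak of 61 nt, upstream at 132272048 to 132272108, occurred in scrambled replicate 1 alone. In replicate 1 and replicate 3 the knockdown peak lay wholly within the bases covered in the scrambled library, 54.4 and 86.5% of which it took up.

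**Figure D3:**
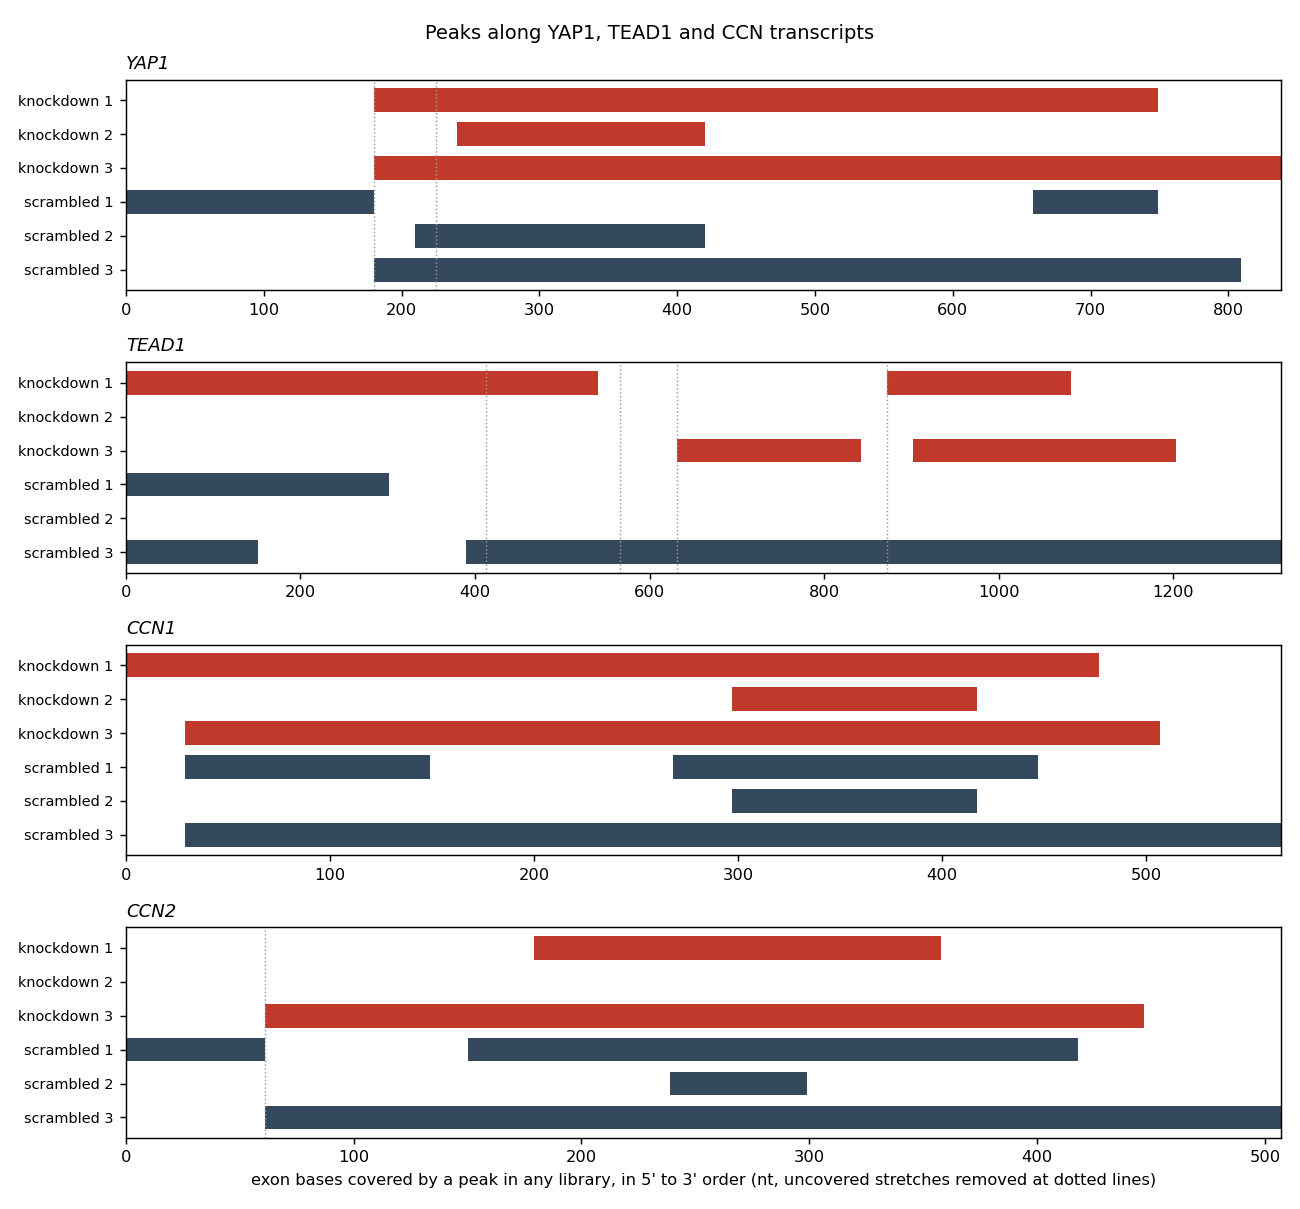
Peak coverage along YAP1, TEAD1, CCN1 and CCN2, drawn on the same kind of axis (exon bases covered by a peak in any library, 5′ to 3′, nt, uncovered stretches removed at dotted lines), with the 3 ALKBH5 knockdown libraries in red above the 3 scrambled libraries in dark blue. CCN1 is covered in the same 120 nt in all 6 libraries, CCN2 is empty in knockdown replicate 2, TEAD1 is empty in both replicate 2 libraries, and the most 5′ YAP1 peak of 180 nt is found in scrambled replicate 1 alone.

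Within 5 of the 6 lists, the best-ranked member peak belonged to a LATS kinase or an angiomotin-like gene. LATS1, LATS2, AMOTL1 and AMOTL2 also had the most peaks of the members, with 19, 26, 14 and 17 over the 6 lists. The best member peak belonged to LATS2 in knockdown replicates 1 and 2, at the 97.9 and 96.3 percentiles, and to LATS1 in knockdown replicate 3, at 94.4. In the scrambled libraries it belonged to TEAD1 in replicate 1 (98.6), AMOTL1 in replicate 2 (77.2) and LATS1 in replicate 3 (93.3). The median over called members of each gene's best percentile was 83.0, 67.5 and 65.0 in knockdown replicates 1, 2 and 3, against 66.2, 59.6 and 65.0 over all genes of those lists. In scrambled replicates 1, 2 and 3 it was 76.1, 46.2 and 85.5, against 66.2, 59.99 and 65.0 over all genes. The median number of peaks per called member was 2, 1.5 and 2 in the knockdown libraries. It was 2 in each scrambled library, and 1 over all genes of every list. The best percentile of a member was thus mostly taken from more peaks. Over single member peaks the median percentile was 66.9, 60.9 and 65.0 in the knockdown and 57.7, 35.3 and 73.3 in the scrambled libraries. CCN2 was the lowest-ranked of the called members in knockdown replicate 1, at 19.4. The score is the authors' own value for each peak, and ranks from lists of different size do not measure a change between libraries.

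**Figure D4:**
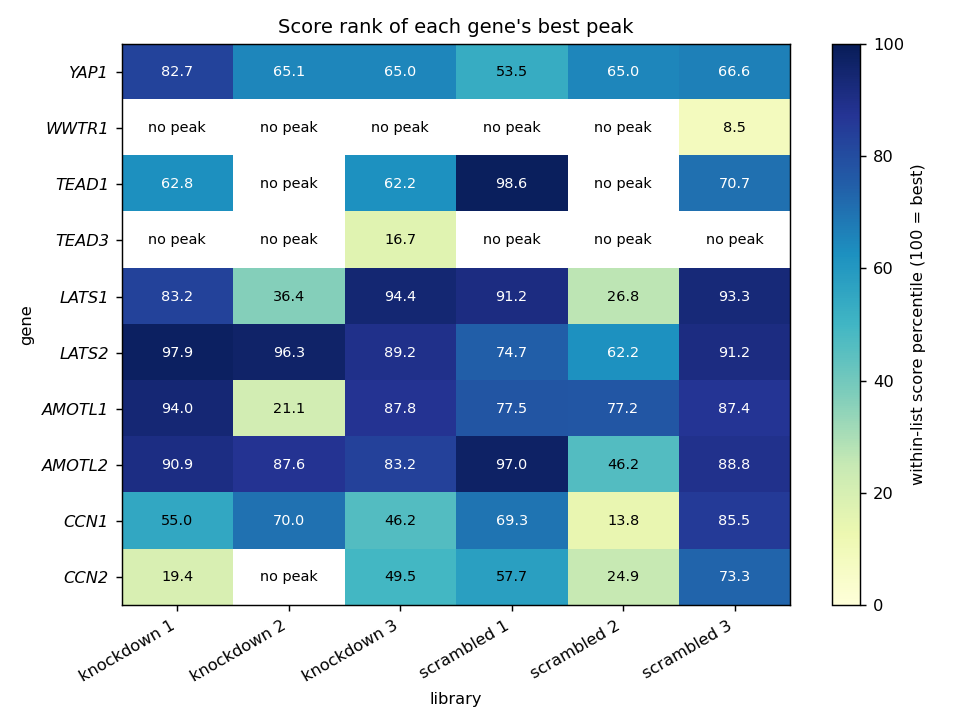
Within-list score percentile of the best peak of each gene (rows) in each library (columns, 3 ALKBH5 knockdown libraries then 3 scrambled libraries); darker means better ranked, 100 is the best score of a list, and white cells had no peak. LATS2 reaches 97.9 and 96.3 in knockdown replicates 1 and 2, and WWTR1 and TEAD3 appear in 1 library each with low ranks of 8.48 and 16.7.

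Member genes called with 1 siRNA and not the other in a pair were too few to rate against the shares over all genes. In replicate 1 the same 8 members had a peak in both libraries, with 0 gained (peak in the knockdown only) and 0 lost (peak in the scrambled library only). Over all genes called in either library of that pair, 20.3% were gained and 5.99% lost. In replicate 2, 0 of 7 members were gained and 1 was lost (CCN2), against 20.3% gained and 18.7% lost over all genes. In replicate 3, 1 of 10 was gained (TEAD3) and 1 lost (WWTR1), against 6.65% and 8.29%.

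At the level of sites, the 10 genes held 23 regions, of which 6 were called in all 6 libraries (26.1%, against 12.7% of all 21675 regions). A single library called 5 of them (21.7%, against 28.9% of all regions). Whether the length of member peaks bears on these shares was not tested. In replicate 1, 1 of 18 member regions was gained and 3 were lost, beside 30% gained and 11.3% lost over all regions. In replicate 2, 2 of 11 were gained and 3 lost (24% and 21.7% over all regions), and in replicate 3, 3 of 21 were gained and 3 lost (13.1% and 15.3%). Knockdown and scrambled libraries thus differed in 15 region calls over the 3 pairs, 6 gained and 9 lost. With only the best-scored 50% of each list the balance was the opposite, with 9 gained and 6 lost. Shares over all regions were not counted for that setting.

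Covered length within pairs varied from member to member. Summed over the 10 genes it was 10454, 2403 and 12071 nt in knockdown replicates 1, 2 and 3, against 7262, 2017 and 12759 nt in the scrambled libraries, or 1.44, 1.19 and 0.946 times as much. The median ratio over members called in both libraries was 1.69, 0.926 and 0.963 in replicates 1, 2 and 3, beside 1.47, 1.08 and 1.00 over all genes called in both. In replicate 1, 6 of 8 members were longer in the knockdown, where 81.9% of all genes were. In replicate 2, 2 of 6 were longer and 3 shorter, beside 52.5% and 39.9% of all genes, and in replicate 3, 4 of 8 were longer and 4 shorter, beside 48.9% and 45.2%.

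A peak in every pair was present for 7 members. Of these 7, LATS2 and AMOTL2 were longer in the knockdown in all 3 pairs, as were 33.8% of the 4045 genes that met the same condition. LATS1 and CCN2 were shorter in all 3 pairs, as were 3.71% of those genes. Among the 6 members called in all 6 libraries, 2 were longer in every pair and 1, LATS1, was shorter, beside 34.1% and 2.08% of the 2452 genes so called. In 0 members did all 3 knockdown lengths lie above or below all 3 scrambled lengths, which was so for 0.742% (above) and 0.0742% (below) of the 4045 genes, and for 0.163% (above) of the 2452. Relative to the length that each list covered, the same 2 members were higher in all pairs and the same 2 lower, beside 19.1% and 17.6% of genes. The share of genes lower in every pair was thus far smaller before the lists' unequal lengths were taken into account. With only the best-scored 50% of each list, LATS2 and AMOTL2 were again longer in every pair, and no member was shorter in every pair. Lengths move in steps: 84.2% of single-block peaks were within 1 nt of a multiple of 30 nt, so the 31 nt of LATS1 in replicate 2 is about 1 step. No gene of the 10536 passed the exact permutation test after Benjamini-Hochberg adjustment (0% called), and 0 had an unadjusted p under 0.05, which 3 against 3 libraries cannot reach.

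**Figure D5:**
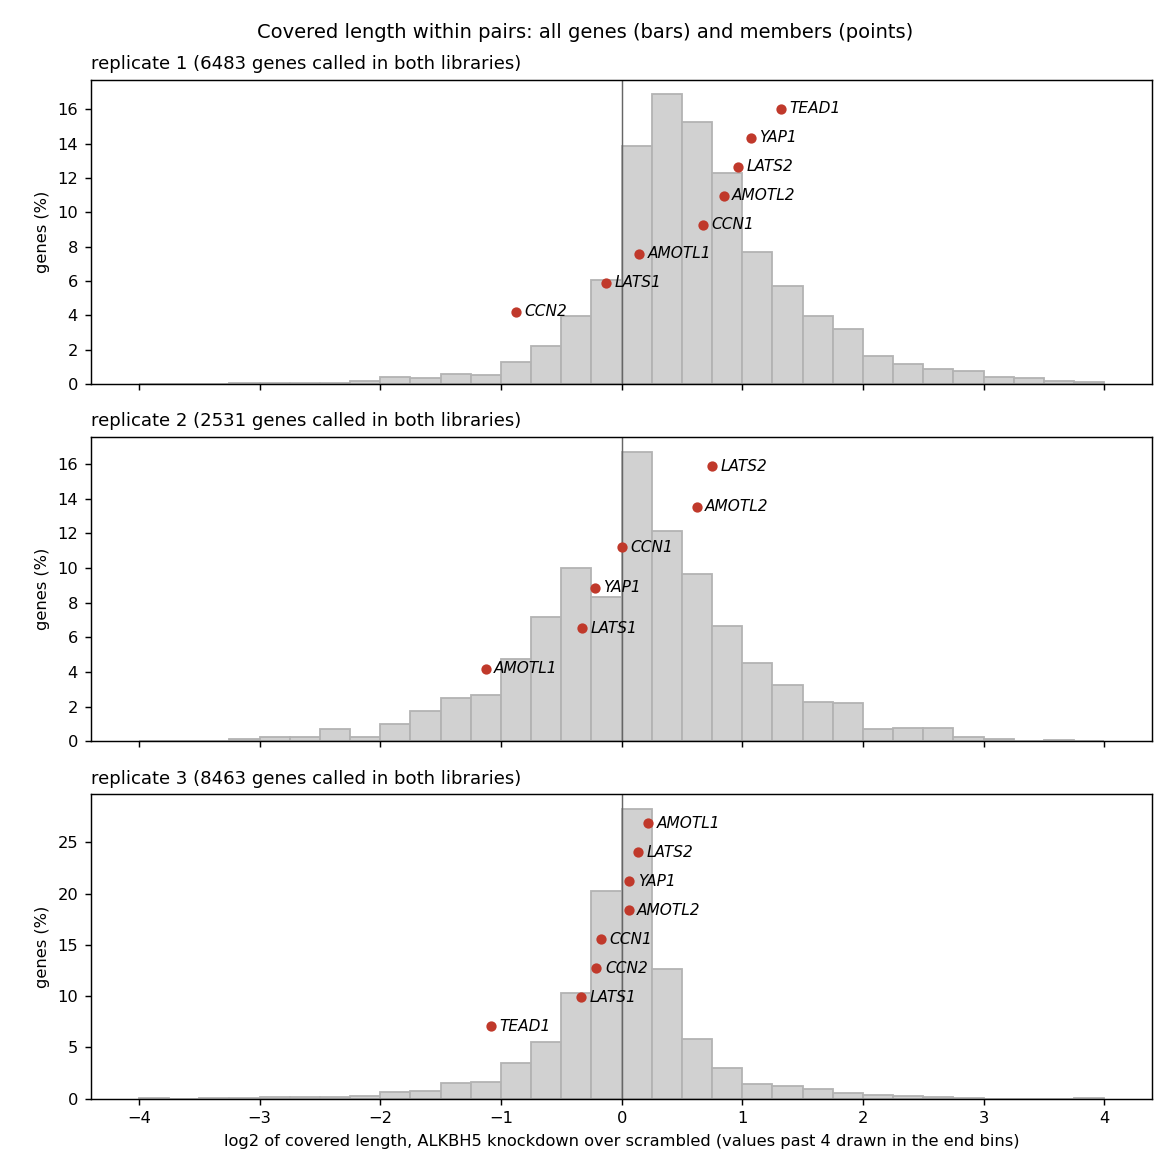
Distribution of the log2 ratio of covered length, ALKBH5 knockdown over scrambled, for all genes called in both libraries of a pair (grey bars, % of genes, 1 panel per replicate number), with the members as red points at their own ratio (their height has no meaning). In replicate 1 most genes lie right of 0 (81.9%) while CCN2 and LATS1 lie left of it; in replicate 3 the bulk is centred on 0 and TEAD1 lies furthest left of the members, at -1.08.

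Other genes of the pathway were counted in 3 lists with 57 genes, of which 43 had a peak in some library and 26 in every pair. Among upstream regulators and the kinase module, 14 of 18 had a peak. Of these, 5 were called in all 6 libraries, beside 23.3% of all genes with a peak. The 5 included FAT1 and DCHS1, atypical cadherins, and FRMD6, a FERM domain protein that acts upstream of the kinases. FAT1 had the most peak of them, with 6821, 2198 and 9245 nt in knockdown replicates 1, 2 and 3, against 4061, 1990 and 8438 nt in the scrambled libraries. STK3, one of the MST kinases that activate LATS, and the LATS cofactors MOB1A and MOB1B had no peak in any list, nor did WWC1. NF2, the tumour suppressor merlin, had 904, 0 and 841 nt in the knockdown and 421, 91 and 541 nt in the scrambled libraries, and like WWC2 and TAOK3 it was called in 1 fewer knockdown library. RASSF1, a scaffold of the MST kinases, was called in knockdown replicates 1 and 3 and in scrambled replicate 1. Of the 8 with a peak in every pair, 3 were longer in the knockdown of all pairs and 0 shorter, and 0 and 0 were so relative to the length of the lists.

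Among partners of YAP1 and TEAD, 13 of 17 had a peak. TEAD2, VGLL1, WTIP and FBXW11 had none. AJUBA, a LIM protein that inhibits LATS kinases, had 1703, 270 and 1761 nt in knockdown replicates 1, 2 and 3, against 450, 210 and 898 nt in the scrambled libraries. CSNK1D, a casein kinase that primes YAP1 for degradation, had 2976, 754 and 2585 nt in the knockdown, against 1266, 332 and 2167 nt in the scrambled libraries, and the LATS-binding LIMD1 was also called in all 6 libraries. BTRC, the ubiquitin ligase subunit that recognises phosphorylated YAP1, had 810, 151 and 1019 nt in the knockdown, against 481, 0 and 930 nt in the scrambled libraries. VGLL3, a cofactor of TEAD, was likewise called in 3 knockdown and 2 scrambled libraries, and VGLL2 and VGLL4 were called in knockdown replicate 3 alone. Of 9 partners with a peak in every pair, 5 were longer in the knockdown of all pairs and 0 shorter, and AJUBA, CSNK1D and BTRC were so relative to list length too.

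Of 22 further YAP target genes, 16 had a peak, and ANKRD1, AXL and MYOF were among the 6 with none. ARHGEF17, FJX1 and DOCK5 were called in all 6 libraries and had the most peak of those that were. CCDC80, a secreted matrix protein, had 2539, 180 and 2446 nt in knockdown replicates 1, 2 and 3, against 330, 0 and 749 nt in the scrambled libraries (difference 1362 nt, exact permutation test, p = 0.3, adjusted over all genes 1). NT5E, a surface nucleotidase, was called in 2 knockdown libraries and 1 scrambled library, and RBMS3 and CCN3 in knockdown replicate 3 alone. IGFBP3 and CRIM1 were called in 2 knockdown and 3 scrambled libraries. Of 9 targets with a peak in every pair, 5 were longer in all 3 pairs and 0 shorter, and 3 of them (CCDC80, NUAK2 and DLC1) were so relative to list length. These counts stand beside 33.8% of all genes longer in every pair, or 19.1% relative to list length, and 0 genes of the 3 lists passed the adjusted test. Calls in knockdown replicate 3 alone stand beside 6.65% of genes gained in that pair. The share of all human genes with any peak was not counted, so the numbers with a peak have no share beside them.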

How the data were processed

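The 6 deposited peak lists of m6A immunoprecipitates were used, 3 of ALKBH5 knockdown and 3 of scrambled siRNA, grouped by their titles. Per the submitters' processing notes, CASAVA 1.8.2, TopHat2 and SAMtools were used with the hg19 genome. The peak caller, its threshold and any use of input reads remain not given in the sources used here. The score that the authors deposited per peak was read as a p-value from its range and was used to rank and select peaks inside 1 list at a time. Lists were made per library, and their depth is unknown, so no interval for depth could be given.

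Covered length is the number of exon bases in peaks that carry a gene number, each base counted once. Peaks that overlap by at least 1 bp on a strand form a region. Gene numbers were named through RefSeq (GRCh38.p14, names only: 10500 of 10536 matched). Group means were compared by a two-sided exact permutation test over all genes with Benjamini-Hochberg adjustment, at a threshold of 0.05, and pairs by an exact sign-flip test. The calculations were tested on simulated data and ran in Python 3.11.15 with pandas 2.3.3 and numpy 2.4.6.

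Libraries were paired by replicate number, since by the labels' protocol a number stands for 1 RNA type and 1 antibody. Same-numbered libraries deviated together from their group means, with a correlation over genes of 0.32, 0.47 and 0.40 in replicates 1, 2 and 3. The members and lists were chosen with earlier results of these data known. All 10 members are named. From each wider list the rule named up to 6 genes that differ most in libraries called and up to 3 called in all 6 libraries with the most covered length, and a few others were named after their values were seen. One gene that the rule named is not reported here.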

Additional observations from a re-analysis of the deposited data

How the results depend on the processing

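The replicate block (exact sign-flip test of the pairs) gave the same differences, with p = 0.25 for LATS1 (-289.7 nt), LATS2 (715.7 nt), AMOTL2 (468.7 nt) and CCN2 (-90 nt) and 0.75 or 1 for the other members, and it changed no call. LATS2 and AMOTL2 stayed longer in the knockdown under each of 13 alternatives. LATS2 had 117.5 to 1507 nt, and 130.5 nt per Mb of list. AMOTL2 had 125.2 to 887 nt, and 104 nt per Mb of list. The sign-flip test, which reuses the same difference, and peaks listed for exactly 1 gene are among the 13 and could not change the sign. Peaks listed for exactly 1 gene changed nothing, because no member peak was listed for another gene. With values per Mb of exon covered by the list, the difference was -44.7 over all members, -7.93 for YAP1, -87.7 for AMOTL1 and -6.78 for CCN1, all of the opposite sign to the lengths in nt. With the best-scored 50% of each list it was -20.7 nt for AMOTL1, -39.7 nt for CCN1 and 20 nt for TEAD1, also turned, and calls of members within pairs were 2 gained and 4 lost, where the whole lists gave 1 and 2. Member regions were then 9 gained and 6 lost, where the whole lists gave 6 and 9. With all 6 lists of equal size CCN1 turned to -238.7 nt, and 6 calls were lost. Counting a gene as called only with 2 peaks gave 4 lost calls. Gained and lost shares over all genes and regions were not counted under these settings. The counts therefore cannot be read as particular to the members. Leaving out both libraries of number 2 gave 1, which was fixed in advance because the lost CCN2 call lay in that pair.

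Leaving out single libraries moved the difference over all members between -1701 and 3917 nt, and it turned without knockdown replicate 1 (-109 nt), knockdown replicate 3 (-917.5 nt) or scrambled replicate 2. The same libraries turned AMOTL1 (-4.83, -335.3 and -285.2 nt) and CCN1 (-19.7, -20.2 and -59.7 nt). Without knockdown replicate 2 LATS1 turned to 414.3 nt, TEAD1 to 170.3 nt and CCN2 to 4.17 nt, and without scrambled replicate 3 LATS1 turned to 388.5 nt and TEAD1 to 270.8 nt. The other ends of the ranges were 550.2 nt for AMOTL1, 158.8 nt for CCN1, -199.2 nt for CCN2, -1123 nt for LATS1 and -271.2 nt for TEAD1. Over these settings gained calls ranged from 0 to 1, lost calls from 1 to 2, gained regions from 3 to 5 and lost regions from 6 to 7. Leaving out 1 library removes its whole pair from these counts, so they cannot be set against the counts over all 3 pairs. Leaving out 1 library unbalances the replicate numbers, whose lists differ in size. Depth is unknown, so a gene with no peak was not detected in that list, which does not show that it was unmethylated.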
